A study of Oryctolagus cuniculus with 8 samples.

Results

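Messenger RNA levels of 10 serine/threonine protein phosphatase genes were compared among cultured rabbit somatic cells, induced pluripotent stem cells and embryonic stem cells. The genes were PPP1CA and PPP1CB, PPP2CA and PPP2CB, PPP2R5B, PPP2R5C and PPP2R5D, PPP3CA and PPP3CB, and PPP4C. They were chosen by name, through the RefSeq accession that the array files give for each probe, and are 10 of the 680 genes that could be named among the 43603 probes of the array. In all, 20 probes (32 spots) belonged to them, and all 20 were well above background on all 8 arrays, so each gene was measured in every sample. PPP2CA had 6 probes, PPP2CB and PPP3CB had 3 each, PPP1CB had 2 and the other genes had 1. Where a gene had more than 1 probe, its brightest probe on average stands for it, and the others are given beside it.

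These phosphatases remove phosphate from serine and threonine residues and so reverse the action of protein kinases. Protein phosphatase 1 (PP1) has interchangeable catalytic subunits, among them those encoded by PPP1CA and PPP1CB, that are directed to their targets by many regulatory proteins. Protein phosphatase 2A (PP2A) joins a catalytic subunit, from PPP2CA or PPP2CB, to a scaffold and to a regulatory B subunit, and the B56 family, which includes PPP2R5B, PPP2R5C and PPP2R5D, is one class of such subunits. PPP3CA and PPP3CB encode catalytic subunits of calcineurin, which calcium and calmodulin activate and which acts on NFAT transcription factors, and PPP4C encodes the catalytic subunit of protein phosphatase 4, a relative of PP2A.

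The cells came from Dutch rabbits, and each of the 8 samples was hybridised to 1 array. For embryonic stem (ES) cells, replicate 1 was line rdES4 and replicate 2 was line rdES2-1. The induced pluripotent stem (iPS) cells were 1 line from liver cells, iPS-L1, at passages 7 and 23, and 1 line from stomach cells, iPS-S1, at passages 6 and 22, so that the early group and the late group each held both lines. The somatic cells were cultured liver cells (replicate 1) and cultured stomach cells (replicate 2). Stem cell medium was used for ES and iPS cells and another medium for the somatic cells, so that medium and cell state cannot be told apart. The labels name no reprogramming factors and do not say that replicates came from separate animals, so that the p-values below reflect only how far these samples vary, which may in part be technical variation. With 2 units in a group, the number of arrays limits the precision.

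The arrays fell into ES and iPS cells on one side and somatic cells on the other. Over the 28852 tested probes, the correlation r was 0.977 to 0.992 among pluripotent arrays and 0.798 to 0.817 between pluripotent and somatic arrays. The 75th percentile of the signal, to which each array was scaled, lay between 273.8 and 341.5 on ES and iPS arrays and between 154.8 and 163.8 on somatic arrays. Of 13 pluripotency markers, 2 were measured. POU5F1, the pluripotency factor Oct4, had levels between 6.69 and 7.62 on ES and iPS arrays and of -3.63 and -3.46 on somatic arrays. PODXL lay between 7.29 and 7.63 on ES and iPS arrays, but at 2.34 in liver cells and -4.54 in stomach cells. It was well above background on 1 somatic array. Markers of the source tissues were mixed. Of the 7 measured of 9 hepatocyte markers, TF, RBP4, APOE, HPX and HP were well above background on all 8 arrays. Summed over the 7, the level was 4.65 in liver cells, 20 in stomach cells, 4.39 to 5.94 in ES cells and 3.43 to 4.05 in iPS cells. Of the 5 tested, TF was called higher and RBP4 lower in both iPS and ES cells than in somatic cells, and 3 were not called. Of the 3 measured of 7 gastric markers, PGC was well above background on all 8 arrays. The summed level was 0.158 in liver cells, 0.12 in stomach cells, 0.171 to 0.181 in ES and 0.135 to 0.196 in iPS cells. The albumin gene ALB did not rise well above background on any array, liver cells included, and ATP4B of the gastric acid pump stayed at background too, stomach cells included. The 4 measured of 9 fibroblast and mesenchyme markers all fell in iPS and in ES cells. Their summed level, in units of the 75th percentile, was 106 to 198 in somatic cells, 1.88 to 2.21 in ES cells and 2.08 to 3.14 in iPS cells, with DCN not above background on any ES or iPS array. The summed level of 5 of 7 smooth muscle markers was 98 to 253 in somatic cells, 25.3 to 35.8 in ES cells and 30.7 to 49.3 in iPS cells. These are bulk RNA samples, in which fewer cells of a type and less RNA per cell cannot be told apart, and the part of this shift in cell markers in the results below was not tested.

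**Figure D1:**
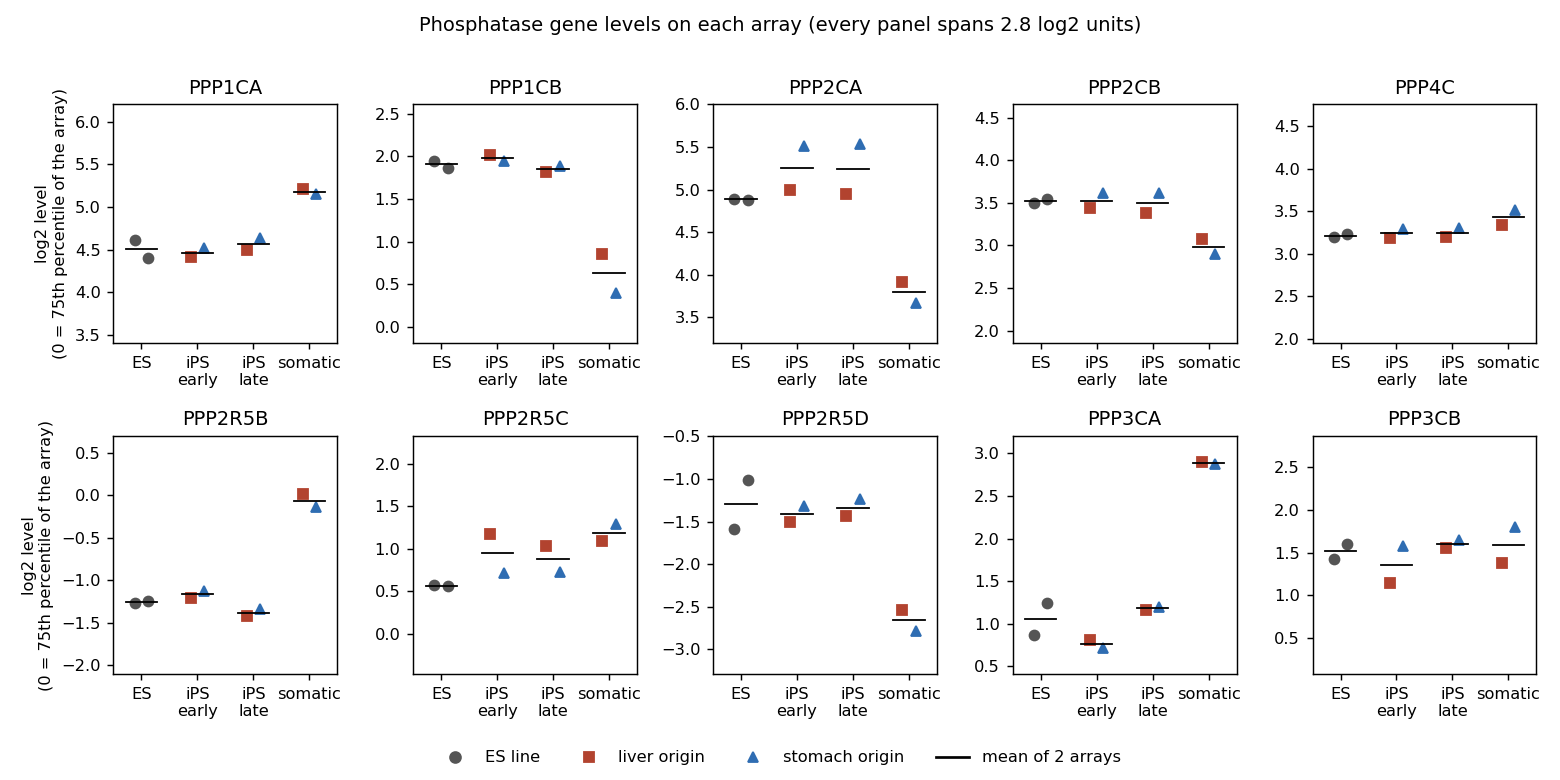
Log2 levels of the 10 genes by their brightest probe (y axis, log2 units, 0 at the 75th percentile of the array) on each of the 8 arrays, by group (x axis), with the mean of the 2 arrays of a group as a line and the origin of the cells as colour and shape. PPP1CB, PPP2CA, PPP2CB and PPP2R5D sit lower on both somatic arrays than on all 6 ES and iPS arrays, and PPP1CA, PPP2R5B, PPP3CA and PPP4C sit higher there, of which PPP1CA and PPP4C do not keep that direction without scaling.

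Of the 10 genes, 7 (4 higher and 3 lower) differed between iPS and somatic cells in a fit with limma at an adjusted p under 0.05. PPP2CA, PPP1CB, PPP2R5D and PPP2CB were higher in iPS cells, and PPP3CA, PPP2R5B and PPP1CA were lower (PPP1CA not without scaling between arrays), while PPP2R5C, PPP4C and PPP3CB did not pass. The same genes and directions were called between ES and somatic cells, with PPP2R5C lower in addition, though not without scaling, which made 4 higher and 4 lower. This stood on a background on which most probes differed. Between iPS and somatic cells 66.6% of all tested probes passed, 34.3% as higher and 32.4% as lower, and of the 511 named genes tested 67.7% passed, 22.1% as higher and 45.6% as lower. Between ES and somatic cells 64% of all tested probes passed, 34.4% higher and 29.6% lower, as did 64% of the named genes, 21.3% higher and 42.7% lower. The count of 7 or 8 of 10 is thus near the background and says nothing particular about phosphatases. The median difference of the 10 genes was -0.15 on the log2 scale in both comparisons, beside 0.02 and 0.07 over all tested probes, and their median absolute difference was 0.93 and 0.88, beside 0.97 and 0.94. Both comparisons use the same somatic arrays and are not independent of each other.

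Differences depend on how arrays are scaled to each other. Over all tested probes the median difference between iPS and somatic cells was 0.02 as reported here, 0.11 after quantile normalization, -0.4 after normexp background correction and 1.03 without scaling. Without scaling, 7 of the 10 genes were called higher and 1 lower in iPS cells, with PPP2R5C, PPP3CB and PPP4C among the higher, and 6 were called higher and 1 lower in ES cells. There 71% of all tested probes passed for iPS cells and 70.5% for ES cells, and 82.5% and 81.4% of those calls were higher. Taking differences relative to the median of all probes undoes the scaling by construction. On that relative scale normexp turned the sign of PPP1CA, PPP2R5C, PPP3CB and PPP4C between iPS and somatic cells, and of PPP3CB and PPP4C between ES and somatic cells.

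**Figure D2:**
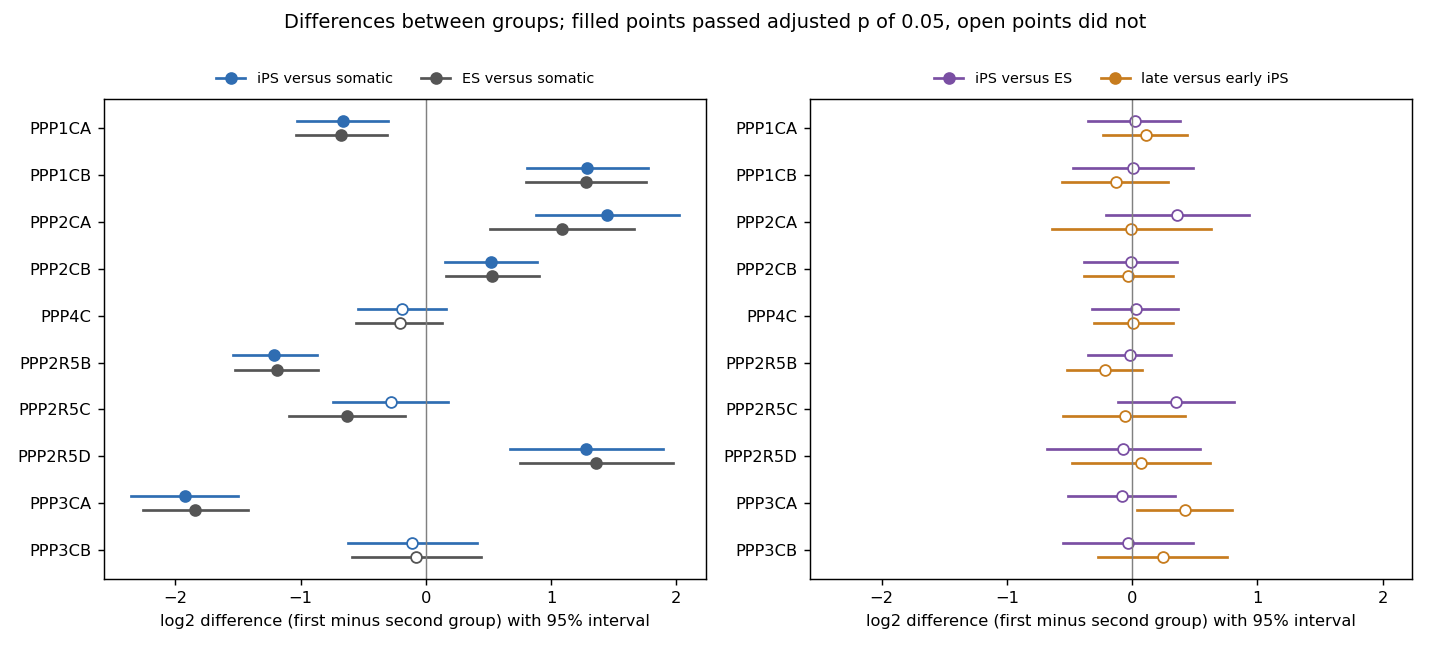
Log2 differences (x axis) for the 10 genes by their brightest probe, with 95% intervals from limma, for iPS and ES against somatic cells on the left and for iPS against ES and late against early iPS cells on the right. Filled points passed an adjusted p of 0.05, which holds for 7 genes (iPS) and 8 genes (ES) on the left and for none on the right. Without scaling the signs of PPP1CA, PPP2R5C, PPP3CB and PPP4C turn on the left.

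The PP1 catalytic subunits differed in opposite directions, though not without scaling, where PPP1CA did not pass. PPP1CB, whose product is the catalytic subunit of myosin phosphatase, had levels of 1.95 and 1.86 in ES cells, 2.02 (liver) and 1.94 (stomach) in early iPS cells, 1.82 and 1.89 in late iPS cells, 0.85 in liver cells and 0.4 in stomach cells. The 6 ES and iPS arrays lay close together and above both somatic arrays. The level was 1.92 ± 0.0022 (SD, n = 2 lines) in iPS cells and 0.63 ± 0.318 (SD, n = 2) in somatic cells, a rise of 1.29 ± 0.187 (SE) or 2.45-fold (adjusted p = 0.00292), and ES cells were 2.43-fold higher than somatic cells (adjusted p = 0.00307). Its second probe was higher by 1.32 and 1.08 and passed in both comparisons.

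PPP1CA, the alpha catalytic subunit of PP1, had levels of 4.61 and 4.4 in ES cells, 4.41 and 4.52 in early iPS cells, 4.5 and 4.64 in late iPS cells, 5.21 in liver cells and 5.15 in stomach cells. Both somatic arrays were above all others, by more than the ES and iPS arrays differed among themselves. The level was 4.52 ± 0.0897 (SD, n = 2 lines) in iPS cells and 5.18 ± 0.046 (SD, n = 2) in somatic cells, a difference of -0.66 ± 0.143 (SE, adjusted p = 0.0112), and it was -0.68 ± 0.143 for ES cells (adjusted p = 0.0107). This direction rests on the scaling, since without scaling PPP1CA was at 0.35 (adjusted p = 0.119) between iPS and somatic cells, and with normexp it lay 0.02 above the median of all probes. Without ES replicate 2 the ES difference was -0.57 (adjusted p = 0.052).

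Both PP2A catalytic subunit genes were higher in pluripotent cells. PPP2CA had levels of 4.89 and 4.88 in ES cells, 4.99 (liver) and 5.51 (stomach) in early iPS cells, 4.95 and 5.53 in late iPS cells, 3.92 in liver cells and 3.67 in stomach cells. All ES and iPS arrays were above both somatic arrays, and the stomach-derived line was the highest at either passage. The level was 5.24 ± 0.389 (SD, n = 2 lines) in iPS cells and 3.79 ± 0.175 (SD, n = 2) in somatic cells, a rise of 1.45 ± 0.224 (SE) or 2.73-fold (adjusted p = 0.00364), and the rise in ES cells was 1.09 ± 0.224 or 2.13-fold (adjusted p = 0.00991). All 6 probes of PPP2CA passed in both comparisons, with differences from 1.41 to 1.82 for iPS cells and from 1.01 to 1.38 for ES cells.

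The gap between the iPS lines was seen with every PPP2CA probe. The stomach-derived line exceeded the liver-derived line by 0.41 to 0.73 in all 12 combinations of probe and passage, and by 0.55 with the brightest probe when passages were averaged. Among all tested probes, 9.7% had a larger gap between the lines. Each line is 1 sample of its origin, its arrays were on separate slides (liver line on slide 1, stomach line on slide 3), and so line, origin and slide cannot be told apart.

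PPP2CB, the beta catalytic subunit of PP2A, had levels of 3.5 and 3.54 in ES cells, 3.44 and 3.61 in early iPS cells, 3.38 and 3.61 in late iPS cells, 3.07 in liver cells and 2.9 in stomach cells. The groups did not overlap, but the difference was small. It was 0.52 ± 0.145 (SE) or 1.44-fold for iPS cells (adjusted p = 0.0259) and 0.53 ± 0.145 or 1.45-fold for ES cells (adjusted p = 0.0253). Of its 3 probes, all passed for iPS cells, at 0.46 to 0.52, and 2 passed for ES cells. The iPS call was lost without the stomach cells (0.43, adjusted p = 0.0739), and the ES call without the stomach cells (adjusted p = 0.0719) and without either ES line (0.0802 for replicate 1, 0.0945 for replicate 2). PPP2CA and PPP2CB encode closely similar proteins. Whether their probes tell the transcripts apart was not tested, as probe sequences are not used here.

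**Figure D3:**
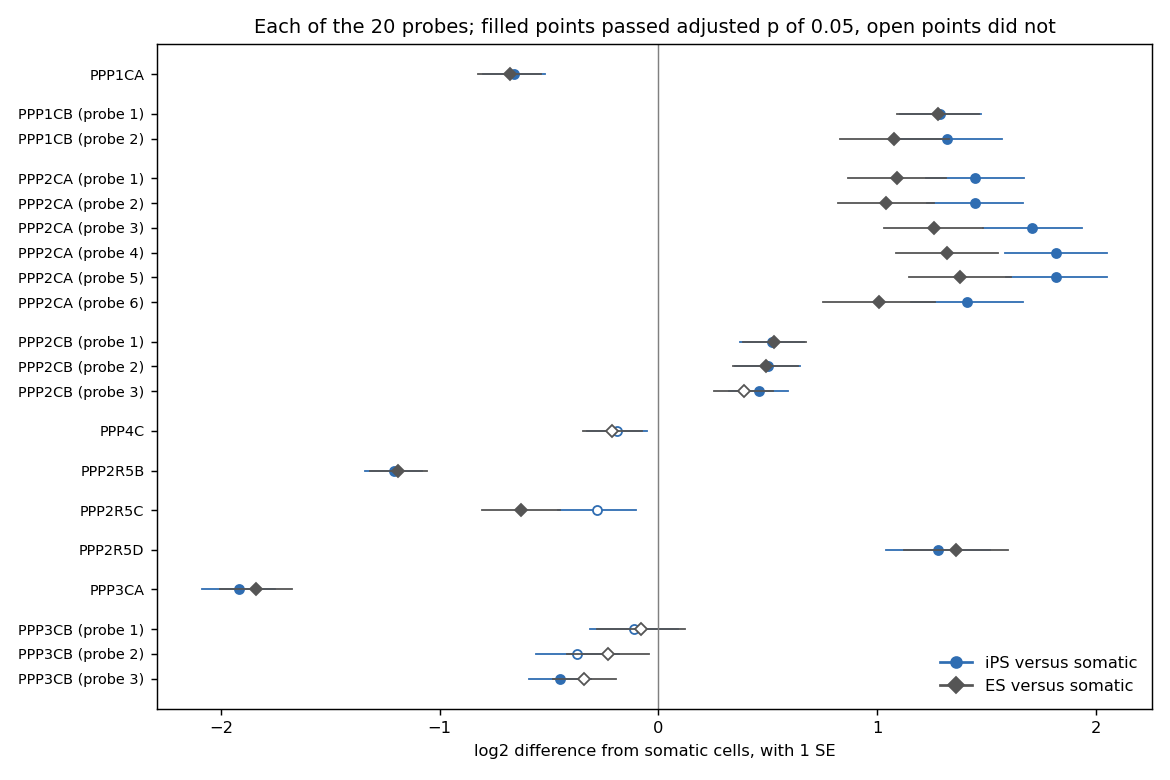
Log2 differences from somatic cells (x axis, with 1 SE) for each of the 20 probes, in order of brightness within a gene, for iPS cells (blue circles) and ES cells (grey diamonds), filled where the adjusted p was under 0.05. The 6 PPP2CA probes lie between 1.01 and 1.82. The 3 PPP3CB probes all lie below 0, though the brightest turns sign with normexp and without scaling. Of these 3, 1 dim probe was called lower for iPS cells, although its signal before scaling was higher there.

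The B56 subunits of PP2A moved in different directions. PPP2R5D, the delta subunit, had levels of -1.59 and -1.01 in ES cells, -1.5 and -1.32 in early iPS cells, -1.44 and -1.24 in late iPS cells, -2.54 in liver cells and -2.78 in stomach cells. All pluripotent arrays were above the somatic arrays, and the ES lines were the lowest and the highest of these. PPP2R5D was 2.44-fold higher in iPS cells (1.28 ± 0.238 SE, adjusted p = 0.00671) and 2.56-fold higher in ES cells (1.36 ± 0.238, adjusted p = 0.00578) than in somatic cells. With normexp both differences were smaller, 0.25 for iPS cells, which did not pass (adjusted p = 0.0507), and 0.28 for ES cells (adjusted p = 0.033).

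PPP2R5B, the beta subunit, went the other way. Its levels were -1.27 and -1.24 in ES cells, -1.21 and -1.12 in early iPS cells, -1.42 and -1.34 in late iPS cells, 0.01 in liver cells and -0.14 in stomach cells. Both somatic arrays were above all others by more than the ES and iPS arrays differed among themselves. The fall from somatic cells was 2.31-fold in iPS cells (-1.21 ± 0.13 SE, adjusted p = 0.00113) and 2.28-fold in ES cells (-1.19 ± 0.13, adjusted p = 0.00119), on a probe with 5 spots. Without scaling it stayed on the lower side, at -0.2 (adjusted p = 0.388) and -0.32 (adjusted p = 0.185), and was not called.

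PPP2R5C, the gamma subunit, had levels of 0.57 and 0.56 in ES cells, 1.17 (liver) and 0.72 (stomach) in early iPS cells, 1.03 and 0.73 in late iPS cells, 1.09 in liver cells and 1.29 in stomach cells. The ES lines were lowest, the stomach-derived iPS line came next, and the liver-derived line overlapped the liver cells. The difference from somatic cells was -0.28 ± 0.178 (SE, adjusted p = 0.219) in iPS cells and -0.63 ± 0.178 (adjusted p = 0.0284) in ES cells. That one passed and the other did not does not separate them, since iPS and ES cells differed by 0.35 ± 0.178 (adjusted p = 0.746). The ES call was lost without the stomach cells (adjusted p = 0.088) and without either ES line (0.0957 for replicate 1, 0.101 for replicate 2), and without scaling the sign turned to 0.73 in iPS cells and 0.24 in ES cells.

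Of the calcineurin genes, PPP3CA was lower in iPS and ES cells, and PPP3CB did not pass by its brightest probe. PPP3CA, the alpha catalytic subunit, had levels of 0.87 and 1.24 in ES cells, 0.81 and 0.71 in early iPS cells, 1.16 and 1.2 in late iPS cells, 2.9 in liver cells and 2.88 in stomach cells. The somatic arrays nearly coincided and stood above every other array. The level was 0.97 ± 0.0213 (SD, n = 2 lines) in iPS cells and 2.89 ± 0.0133 (SD, n = 2) in somatic cells, a 3.8-fold lower level for iPS cells (-1.92 ± 0.166 SE, adjusted p = 0.000585), and ES cells were 3.58-fold lower (-1.84 ± 0.166, adjusted p = 0.000668). The call held under each scaling, with slide as a block and without any 1 array, but without scaling the differences were -0.92 and -0.97.

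PPP3CB, the beta catalytic subunit of calcineurin, had levels of 1.43 and 1.6 in ES cells, 1.14 and 1.58 in early iPS cells, 1.56 and 1.65 in late iPS cells, 1.38 in liver cells and 1.8 in stomach cells, so that the groups overlapped. The difference from somatic cells was -0.11 (95% interval -0.62 to 0.41, adjusted p = 0.655) for iPS cells and -0.08 (-0.59 to 0.44, adjusted p = 0.752) for ES cells. The other probes of this gene were at -0.37 and -0.45 for iPS cells, of which the latter passed (adjusted p = 0.0399), and neither passed for ES cells. The probe that passed was dim, with signals before scaling of 50.9 to 59.98 on iPS arrays and 36.33 and 37.51 on somatic arrays. Its call as lower thus rests on the scaling. The sign of the brightest probe turned with normexp (0.07 and 0.09) and without scaling (0.9 and 0.79), where it was called higher (adjusted p = 0.011 and 0.0184).

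PPP4C was the steadiest of the genes among pluripotent arrays. Its levels were 3.2 and 3.23 in ES cells, 3.19 and 3.29 in early iPS cells, 3.2 and 3.3 in late iPS cells, 3.34 in liver cells and 3.52 in stomach cells. The somatic arrays were just above the others, but the difference was -0.19 (95% interval -0.54 to 0.16, adjusted p = 0.267) for iPS cells and -0.21 (-0.56 to 0.13, adjusted p = 0.218) for ES cells. These intervals leave room for differences as far as -0.56. Without scaling PPP4C was higher, at 0.82 (adjusted p = 0.00758) and 0.66 (adjusted p = 0.0186).

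Levels on ES and iPS arrays did not overlap those on somatic arrays for 8 of the 10 genes, 4 in each direction, beside 73.1% of all tested probes (38% higher and 35% lower in pluripotent cells) and 70.8% of the named genes (24.1% higher and 46.8% lower). Slides were compared next, since the arrays were spread over 3 of them. Slide 1 held ES replicate 1, the liver-derived line at both passages and the liver cells, slide 2 held ES replicate 2 and the stomach cells, and slide 3 held only the stomach-derived line. For PPP3CA the differences within slide 1 were -2.03 (ES), -2.09 (early iPS) and -1.74 (late iPS), and -1.65 (ES) within slide 2. For PPP2R5B they were -1.28, -1.22, -1.43 and -1.1 in the same order, for PPP1CB 1.1, 1.17, 0.97 and 1.46, and for PPP2CA 0.97, 1.07, 1.03 and 1.21. PPP2R5D gave 0.95, 1.04, 1.1 and 1.77, PPP1CA -0.61, -0.8, -0.71 and -0.75, and PPP2CB 0.43, 0.36, 0.31 and 0.64. PPP2R5C was at -0.52, 0.08, -0.06 and -0.74. The 7 genes called in iPS against somatic cells each kept 1 sign in all 4 within-slide differences, as did PPP4C, which was not called. Where pluripotent and somatic arrays do not overlap, as for these genes, this sign is fixed in advance. It therefore adds nothing to the lack of overlap, and only the sizes can be compared between slides. With slide as a block in limma, which leaves the liver-derived line alone to stand for iPS cells, 34.4% of probes were called and of the 10 genes only PPP3CA (-1.82, adjusted p = 0.0282) and PPP2R5B (-1.28, adjusted p = 0.0399). PPP2CA (1.11, adjusted p = 0.0528), PPP1CB (1.16, 0.0553), PPP2R5D (1.27, 0.0837), PPP1CA (-0.79, 0.0878) and PPP2CB (0.39, 0.288) were not called there. For ES cells, where 51.2% of probes were called with this block, it kept 5 of the 8 calls and lost PPP1CA (adjusted p = 0.0573), PPP2CB (0.0987) and PPP2R5C (0.0703).

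iPS cells were then compared with ES cells directly. No phosphatase gene passed with limma, nor did any at an unadjusted p under 0.05, and of all tested probes 0% passed (2142 at an unadjusted p under 0.05). The largest differences were those of PPP2CA, 0.36 (95% interval -0.21 to 0.93, adjusted p = 0.804), and PPP2R5C, 0.35 (-0.11 to 0.81, adjusted p = 0.746). For both genes, 1 of the iPS lines made most of the difference, the stomach-derived line for PPP2CA and the liver-derived line for PPP2R5C. The other 8 genes lay between -0.08 and 0.03. Their intervals were wide beside these values, as for PPP1CA (-0.35 to 0.38), PPP3CA (-0.51 to 0.34) and PPP2R5D (-0.68 to 0.54), and leave room for differences of such sizes. These intervals are not adjusted for the number of probes and so mark no limit of detection. Larger differences did not pass either, such as 2.38 for CAV1 (adjusted p = 0.401 with limma).

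Late and early iPS cells came from the same lines, but the main fit compared them as groups, without pairing by line. None of the 10 genes passed with limma, beside 0.0277% of all tested probes (8 probes, 0.00693% higher and 0.0208% lower, and 2413 at an unadjusted p under 0.05). With the line as a block, 0 probes and 0 of the 10 genes passed. PPP3CA had the largest difference. It was higher at late passage by 0.35 in the liver-derived and 0.5 in the stomach-derived line, 0.42 ± 0.155 (SE) on average, with an unadjusted p = 0.0344 from limma and an adjusted p = 0.567. Its late levels of 1.16 and 1.2 lay between those of the ES lines, and its early levels were below both. PPP3CB was higher by 0.42 in the liver-derived and 0.07 in the stomach-derived line (adjusted p = 0.83). PPP2R5B was lower by -0.22 in each line (adjusted p = 0.702). The other 7 genes lay between -0.13 and 0.11 on average, among them PPP2CA, whose line gap was 0.52 early and 0.58 late. The arrays of a line shared a slide, so that these differences were within slides.

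Related subunits that serve the same enzyme were set against each other within each array. A constant scaling of the array cancels in such a difference, but its height depends on the probes, so that only its change between groups can be read. The 4 pluripotent lines, with passages averaged, were compared with the 2 somatic samples by an exact permutation test, two-sided, which with 15 possible splits cannot give a p under 0.0667. All 6 pairs reached that p (adjusted p = 0.0667), none passed 0.05, and every pair kept its sign with quantile normalization and normexp. The pairs of B56 subunits share genes and are not independent of each other. Single probes often separated the arrays too (73.1% of all tested probes), and other gene pairs were not examined. The count of pairs thus says nothing particular about these subunits. PPP1CA minus PPP1CB was 2.6 ± 0.0723 (SD, n = 4 lines) in pluripotent cells and 4.55 ± 0.272 (SD, n = 2) in somatic cells, a change of -1.96. PPP3CA minus PPP3CB changed from 1.3 ± 0.306 in somatic to -0.48 ± 0.146 in pluripotent cells, by -1.79.

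Among the regulatory subunits, PPP2R5B minus PPP2R5D went from 2.6 ± 0.0635 (SD, n = 2) in somatic cells to 0.08 ± 0.232 (SD, n = 4 lines) in pluripotent cells, a change of -2.52, which was -1.19 with normexp. PPP2R5C minus PPP2R5D changed by -1.77, or -0.58 with normexp, and PPP2R5B minus PPP2R5C by -0.74. For the PP2A catalytic subunits the change was 0.74, from 0.81 ± 0.0519 in somatic to 1.55 ± 0.259 in pluripotent cells.

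**Figure D4:**
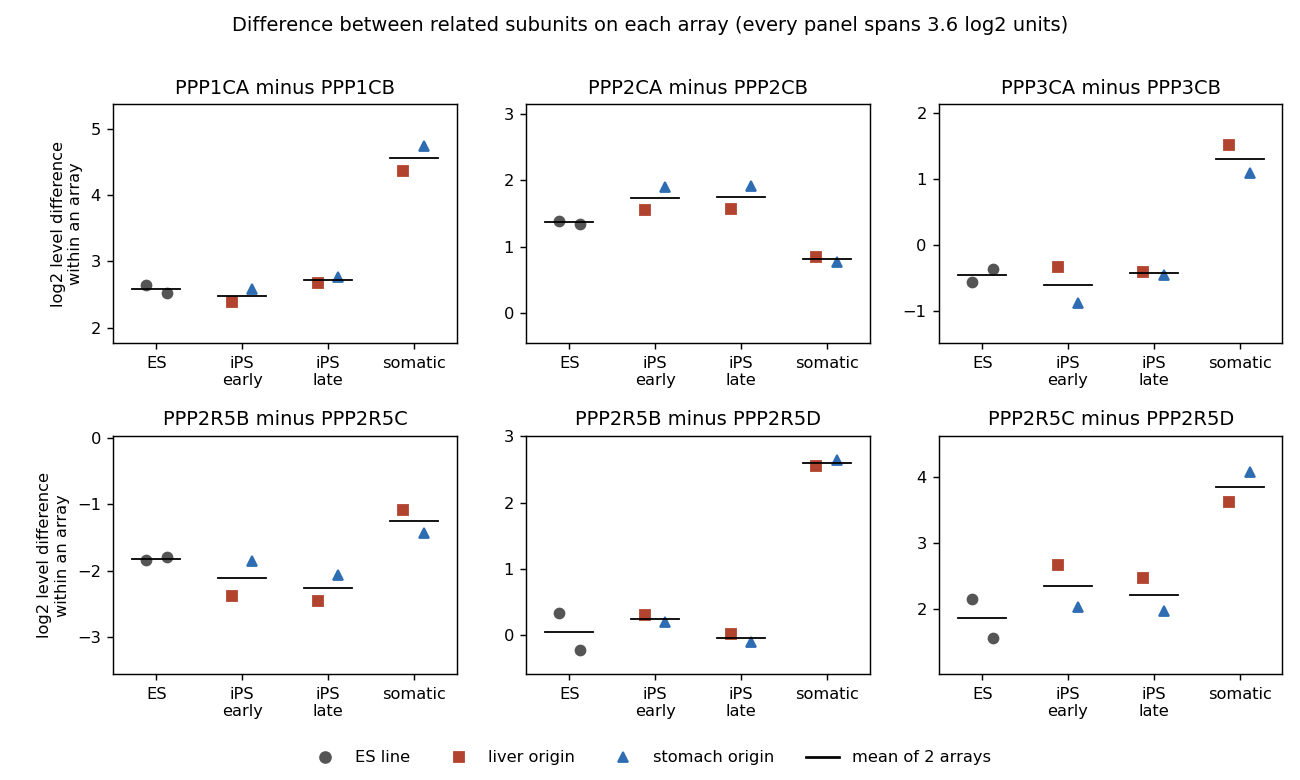
Within-array log2 differences between the brightest probes of related subunits (y axis) on each of the 8 arrays, by group (x axis), with the mean of the 2 arrays of a group as a line. In all 6 pairs both somatic arrays stand apart from the 6 ES and iPS arrays, with an average change of -2.52 for PPP2R5B minus PPP2R5D that was -1.19 with normexp.

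Few other phosphatase genes could be named. Of 51 symbols for further subunits and regulators, 4 had a probe and 3 were tested. PPP1R2, which encodes inhibitor-2 of PP1, was higher in iPS (1.14 ± 0.158 SE, adjusted p = 0.00254) and ES cells (1.07 ± 0.158, adjusted p = 0.00319), and stayed so under each scaling. Its levels were -0.18 and -0.14 in ES cells, 0.24, -0.01, -0.15 and -0.44 in iPS cells, and -1.32 and -1.14 in somatic cells, so that the groups did not overlap. PPM1A, a metal-dependent phosphatase of another family, was at 0.34 (adjusted p = 0.124) for iPS cells, and PTPA, an activator of PP2A, at -0.05 (adjusted p = 0.767), with a sign that turned with the scaling (-0.29 with normexp, 0.96 without scaling). PPP1R3A, a glycogen-targeting subunit of PP1, was at background level on all 8 arrays.

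PP1 and phosphorylase kinase regulate enzymes of glycogen metabolism. Of 8 tested genes of this metabolism, 4 were lower and 1 higher in iPS cells, beside 45.6% and 22.1% of all named genes, and the same counts held for ES cells, beside 42.7% and 21.3%, though without scaling 2 were lower and 3 higher in each. The median was -0.79 for iPS and -0.5 for ES cells. GYS1, muscle glycogen synthase, which PP1 activates, fell 12.8-fold in iPS cells (-3.68 ± 0.131 SE, adjusted p = 9.45e-05) and 13.8-fold in ES cells (adjusted p = 8.1e-05). Of the phosphorylase kinase subunits, PHKA2 was higher in iPS cells (2.37 ± 0.448, adjusted p = 0.00719), PHKA1 was lower (-1.17 ± 0.239, adjusted p = 0.00945), and not called without scaling, and PHKB was at -0.05 (adjusted p = 0.876), with 3 of its 4 probes of opposite sign. By its 1 probe, PHKA2 was at 2.78 and 3.04 in the stomach-derived iPS line and at 1.46 and 1.78 in the liver-derived line. Line, origin and slide cannot be told apart here either.

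Of 6 tested calcineurin partners and calcium-handling genes, 3 were higher and 1 lower in iPS cells, beside 22.1% and 45.6% of all named genes. In ES cells 1 was higher and 1 lower, beside 21.3% and 42.7%. With normexp 2 were higher and 3 lower in each. PPIA, cyclophilin A, which in complex with cyclosporin inhibits calcineurin, rose in iPS cells by 0.53 ± 0.145 (SE, adjusted p = 0.0238) and did not pass in ES cells (0.36, adjusted p = 0.0786). ATP2A2, a calcium pump of the endoplasmic reticulum, was at 0.44 ± 0.151 (adjusted p = 0.0485) in iPS and 0.42 (adjusted p = 0.0586) in ES cells. Both PPIA and ATP2A2 passed in ES cells with normexp, with quantile normalization and without scaling. Neither passed between iPS and ES cells (adjusted p = 0.846 and 0.987 with limma). RYR1, a calcium release channel, was higher in iPS cells (1.96 ± 0.305, adjusted p = 0.00373) but at -0.02 with normexp (adjusted p = 0.863), and was well above background on 1 of 2 somatic arrays. The lower gene was PLN, an inhibitor of that calcium pump, named after its value was seen. It was well above background on both somatic arrays, on 2 of 4 iPS arrays and on no ES array, so that no exact difference is given. FKBP1B did not pass (-0.45, adjusted p = 0.285).

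Of 10 tested kinase genes, 1 was higher and 2 lower in iPS cells, beside 22.1% and 45.6% of all named genes. In ES cells 1 was higher and 3 lower, beside 21.3% and 42.7%. For iPS cells the numbers called up and down became 6 and 1 when arrays were left unscaled. Under normexp they were 1 and 6. CAMK2D, a calcium/calmodulin-dependent kinase subunit, fell 11-fold in iPS cells (-3.47 ± 0.263 SE, adjusted p = 0.000431) and 13.2-fold in ES cells (adjusted p = 0.000362). PRKCZ, an atypical protein kinase C, was 7.35-fold higher in iPS cells (2.88 ± 0.191, adjusted p = 0.000312) and 7.8-fold higher in ES cells (adjusted p = 0.00029). CAMK2G (0.13, adjusted p = 0.518) and EIF2AK1 (-0.09, adjusted p = 0.574) did not pass in iPS cells, and EIF2AK1 turned sign with the scaling.

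The named genes closest in pattern to the 3 members with the largest differences were found by the root mean square distance of centred log2 levels over the 8 arrays, among 510 other named genes. For PPP3CA these were GAPDH (0.169), NHERF2 (0.207) and THBD (0.215), against a median distance of 0.94. For PPP2CA they were YWHAQ (0.131), CCT7 (0.186) and SNRPA (0.218), against a median of 1.03. For PPP1CB they were NT5C3A (0.105), CCT2 (0.114) and ODF2 (0.118), against a median of 0.969. All 3 members and their neighbours share the same 8 arrays, 2 somatic and 6 pluripotent, so that these distances describe the arrays and carry no test.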

How the data were processed

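Total RNA of 8 samples was labelled with Cy3 and hybridised to 1-colour Agilent arrays. Per the file headers, the deposited intensity is the processed signal of Feature Extraction 10.5.1.1, with background subtraction and spatial detrending listed among the quality statistics and outlying spots marked. The authors' deposited table of log2 values matched these intensities after scaling to the 75th percentile and subtraction of each probe's median (r = 1 on each array), with column medians from -0.0416 to 0.342, so that its scale, centring and direction are known. It served as an alternative.

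The log2 intensity minus that of the 75th percentile of the array was computed, marked spots were left out and spots of a probe averaged. Probes were tested where well above background on both arrays of at least 1 group (28852). Symbols came from the RefSeq table of assembly mOryCun1.1. limma 3.58.1 in R 4.3.3 was used, two-sided, with Benjamini-Hochberg adjustment over all tested probes, and was tested on simulated data. Passages of an iPS line were averaged (6 units in 3 groups), except for late against early cells (8 arrays in 4 groups). The files hold no mean signal, so normexp (offset 50) used median signals. All members were named. From each gene list up to 4 tested genes with the highest level were named. For the 3 members with the largest difference between iPS and somatic cells, the nearest genes were named too. The members and lists were chosen with earlier results of these data known. Line names pair late with early iPS arrays, and the gap between lines correlated at r = 0.224 between passages. Alternatives were background correction, scaling, the filter, the authors' table, slide, probes, averaging of passages, each array left out and replicate blocks.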

Additional observations from a re-analysis of the deposited data

Results flagged for a closer look

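PPP2R5C differed by origin, at 0.01 for the liver-derived iPS line minus liver cells and -0.57 for the stomach-derived line minus stomach cells, and the difference was not tested. The liver value had no steady sign, at 0.08 for early and -0.06 for late passage. It was taken within slide 1, and the stomach value between slides 3 and 2. Late minus early differences of opposite sign in the liver-derived and the stomach-derived line, also untested, were -0.04 and 0.03 for PPP2CA, -0.14 and 0.01 for PPP2R5C, and -0.06 and 0 for PPP2CB, where the second value rounds to zero from above. No group had enough arrays to look for an array far from the others.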

How the results depend on the processing

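The counts of called members and the values of each gene were recomputed under every alternative. With slide as a block, 5 members were called between ES and somatic cells, in place of 8, while the ES differences themselves stayed as in the main fit. For iPS cells this block leaves only the liver-derived line to compare. Leaving out each array in turn gave 6 to 7 called members for iPS cells (6 without the stomach cells) and 5 to 8 for ES cells (5 without ES replicate 2), and none between iPS and ES cells or between late and early cells. Between groups and somatic cells, signs turned with normexp for PPP3CB (0.07 iPS, 0.09 ES) and PPP4C (0.08, 0.07), and without scaling for PPP1CA (0.35, 0.19), PPP2R5C (0.73, 0.24), PPP3CB (0.9, 0.79) and PPP4C (0.82, 0.66). Without single arrays PPP3CB ranged from -0.31 to 0.1 (iPS) and -0.29 to 0.13 (ES).

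Between iPS and ES cells, where nothing passed, signs turned with normexp for PPP2CB (0), with quantile normalization for PPP1CA (-0.06), PPP1CB (-0.03), PPP2R5B (0.02) and PPP4C (-0.02), without scaling for PPP2CB (0.13), PPP2R5B (0.12), PPP2R5D (0.06), PPP3CA (0.05) and PPP3CB (0.11), with slide as a block for PPP1CA (-0.11), PPP1CB (-0.12) and PPP3CA (0.02), and over all probes for PPP2CB (0.01). Without single arrays the values ranged from -0.09 to 0.12 for PPP1CA, -0.04 to 0.06 for PPP1CB, -0.03 to 0.01 for PPP2CB, -0.07 to 0.04 for PPP2R5B, -0.36 to 0.22 for PPP2R5D, -0.27 to 0.1 for PPP3CA and -0.13 to 0.08 for PPP3CB. Between late and early cells, signs turned with normexp for PPP2CA (0.03), PPP2CB (0.03) and PPP4C (-0.08), with quantile normalization for PPP2CA (0.02) and without scaling for PPP4C (0), and without single arrays the ranges were -0.3 to 0.28 for PPP2CA, -0.14 to 0.08 for PPP2CB, -0.29 to 0.16 for PPP2R5C, -0.03 to 0.17 for PPP2R5D and -0.04 to 0.07 for PPP4C. The cause was not tested for any of these.

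Of called probes between iPS and somatic cells, 51.4% were higher, and 33.2% with normexp, 82.5% without scaling and 38.8% without the filter; for ES cells these were 53.7%, 34%, 81.4% and 40.1%. The iPS line as a replicate block left no member called between late and early cells, as before (PPP3CA adjusted p = 0.297), and ended all 8 probe calls (0 probes called). The tissue of origin as a replicate block gave 6 called members between iPS and somatic cells, beside 57.2% of all probes, and lost PPP2CB (adjusted p = 0.1). The labels do not say whether the lines were made from these cultures of liver and stomach cells. Over all tested probes, the gap between liver and stomach cells correlated with that between the iPS lines at r = 0.0222. The counts of the other gene lists under other scalings were added after seeing the data.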
